A study of Rattus norvegicus with 22 samples.

Results

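Oligodendrocyte lineage and myelin genes were followed in the nucleus accumbens (NAc) of EtOH-exposed rats as a list of 35 genes, chosen by exact symbol among the 17310 genes counted. The list held 6 genes of oligodendrocyte precursors and newly formed oligodendrocytes (Cspg4, Sox6, Nkx2-2, Gpr17, Enpp6 and Bcas1), 3 transcription factors of the whole lineage (Sox10, Olig1 and Olig2) and 26 genes of mature oligodendrocytes and myelin. All 35 were present in the count files. PolyA+ RNA from single NAc dissections of 22 adult male outbred Wistar rats was sequenced in 2 experiments. In experiment 1, 5 rats had continuous voluntary access to 6 v/v% EtOH beside water for 8 weeks, and 5 control rats had water only. In experiment 2, all 12 rats had access to 6% EtOH for 4 weeks, 3 weeks of gavage and access for 2 weeks more. In 6 of them the gavage was EtOH (2.5 g/kg at 30 v/v%, 2 times daily) and in 6 controls it was water. For the controls the paper describes access to 6% EtOH over the same period, combined with the gavage. Whether the EtOH gavage rats could also drink EtOH in the gavage weeks is not stated. Experiment 2 therefore had no EtOH-naive group, and its contrast is that of forced intake on top of drinking. Core and shell were both dissected and each rat gave 1 library, so a value is an average over every cell type in the dissection.

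Oligodendrocytes arise from precursor cells that persist through adult life, and each mature cell wraps several axons in compact myelin. The SOX10 and OLIG factors act along the whole lineage, and MYRF switches on the myelin programme at differentiation. The NAc is crossed by myelinated fibre bundles, so a dissection carries myelin transcripts beside those of striatal neurons. Cspg4 (NG2) is also made by pericytes and Sox6 by some interneurons, and Sirt2, Qdpr, Gsn and Cryab are made by other cell types too.

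Promoter sequence was searched for motifs of these factors. Whether the motifs bear on how members varied among rats was not tested. Of the 35 members, 26 had an entry in the RefSeq promoter table (build GRCr8, 250 bases before to 50 after the gene start), with 27 promoters in all. CTGGCAC, the MYRF motif, was present on either strand in 7 of the 27 (25.9%), against 4.75% of all 33469 promoters. The SOX core ACAAAG was in 33.3% against 18.8%, ACAAT in 29.6% against 33.7%, and the E-boxes CAGCTG and CATATG in 25.9% against 15.1% and in 0% against 4.11%. Members without an entry were Bcas1, Car2, Cryab, Ermn, Lpar1, Mog, Myrf, Olig1 and Sox10. The 250 bases before the start are shown for Cnp and Mag, members that were low in 3 libraries of experiment 2, and for Mal and Aspa, members that were not, all chosen after their values were seen. Capitals mark a match to any of the 5 motifs on either strand. The windows are chr10:86011254-86011503 (plus strand) for Cnp, chr1:95291045-95291294 (minus strand) for Mag, chr3:135341424-135341673 (minus strand) for Mal and chr10:58439038-58439287 (minus strand) for Aspa.
Cnp: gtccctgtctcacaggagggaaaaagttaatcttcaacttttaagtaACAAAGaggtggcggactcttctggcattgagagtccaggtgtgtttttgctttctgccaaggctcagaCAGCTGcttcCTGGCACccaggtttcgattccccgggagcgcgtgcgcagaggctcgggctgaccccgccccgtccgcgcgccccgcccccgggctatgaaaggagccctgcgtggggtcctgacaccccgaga
Mag: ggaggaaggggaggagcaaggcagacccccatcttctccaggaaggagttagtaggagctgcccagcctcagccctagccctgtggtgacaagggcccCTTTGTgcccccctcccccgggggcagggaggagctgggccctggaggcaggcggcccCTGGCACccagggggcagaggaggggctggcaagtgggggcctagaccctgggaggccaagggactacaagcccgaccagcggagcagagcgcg
Mal: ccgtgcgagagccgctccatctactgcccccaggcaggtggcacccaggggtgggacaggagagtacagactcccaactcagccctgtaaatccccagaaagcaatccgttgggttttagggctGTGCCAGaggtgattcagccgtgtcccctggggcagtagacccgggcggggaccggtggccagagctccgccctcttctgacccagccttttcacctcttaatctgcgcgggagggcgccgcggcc
Aspa: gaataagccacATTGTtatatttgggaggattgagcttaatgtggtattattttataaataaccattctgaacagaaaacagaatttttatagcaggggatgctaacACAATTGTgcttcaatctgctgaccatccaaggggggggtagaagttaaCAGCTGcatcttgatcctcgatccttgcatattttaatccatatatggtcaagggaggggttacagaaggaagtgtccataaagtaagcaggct
The windows of Cnp, Mag and Mal each held 1 CTGGCAC match, that of Mal on the opposite strand (GTGCCAG). The window of Aspa held none, and had 3 matches to ACAAT, of which a pair overlap in ACAATTGT, and 1 to CAGCTG. A match is a string of letters and not a shown binding site.

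The depth in assigned reads ranged from 2962291 to 5247386 per rat in experiment 1 and from 6713617 to 8765472 in experiment 2. The 35 members took 0.591 to 1.12% of the assigned reads in experiment 1 and 0.515 to 1.08% in experiment 2. All 10 markers of striatal projection neurons were detected, with a summed level of 2900 to 5691 CPM (counts scaled to the library total) in experiment 1 and 4705 to 8867 CPM in experiment 2. Markers of peripheral myelin were low, at 9.21 to 47.7 CPM over 6 genes, with Ncmap at 0 throughout. A set of 3 libraries of experiment 2 stood apart, namely water gavage rat 1 and EtOH gavage rats 1 and 2. Reads aligned outside annotated genes made up 54.5 to 58% of the sum of reads inside and outside genes in these 3 libraries and 46.1 to 52.8% in the other 9. On the first principal component of the tested genes that are no members, which held 73.6% of the variance of experiment 2, they lay at -85.1 to -36.6 and the other 9 at -17.7 to 48.9. In experiment 1 the first component held 26% of the variance and the share of reads outside genes was 48.4 to 51.1%. Results of experiment 2 are given with and without the 3 libraries.

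After voluntary drinking in experiment 1 the members had no common direction. Of the 31 members tested, 15 were higher and 16 (51.6%) lower in EtOH rats, where 50.5% of all 8655 tested genes were lower, and the median log2 fold change of the members was -0.0031 against -0.0012 over all genes. No gene had a false discovery rate (FDR) under 0.05 by the quasi-likelihood test of edgeR (0% of 8655, lowest FDR 0.536). An unadjusted P under 0.05 was reached by 260 higher genes (3%) and 223 lower genes (2.58%), and among the members by Sox6 alone, as higher. DESeq2 gave 0 genes at an FDR under 0.05 (lowest FDR 0.093) and 632 of 14022 at an unadjusted P under 0.05. The filter on low counts, which kept the upper 50% of listed genes by mean count, left out Nkx2-2, Enpp6, Nkx6-2 and Gal3st1.

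Sox6, which encodes a SOX factor that holds precursor cells in the undifferentiated state, was counted at 72.8, 93.0, 86.9, 65.7 and 78.6 normalized counts in the 5 EtOH rats and at 52.1, 54.5, 61.3, 40.7 and 47.4 in the 5 water rats. Every EtOH rat lay above every water rat. The means were 79.4 ± 10.9 and 51.2 ± 7.72 (SD, n = 5 each), a log2 fold change of 0.63 (SE 0.15, edgeR FDR = 0.536). Sox6 had rank 7 among all genes by P. The exact permutation test of the difference in mean log2 CPM, two-sided, gave P = 0.00794, the smallest that 5 rats against 5 allow. This test gives each P called exact from here on, with no adjustment. Groups without overlap occurred in 73 of the 8655 genes (0.843%). Leaving out any single rat kept the log2 fold change between 0.56 and 0.71 (P from 0.000493 to 0.00277). Neuroblast markers were higher in the same rats. Their summed level over 6 genes, none at 0 throughout, was 281 to 393 CPM in the EtOH group and 206 to 277 CPM in the water group, and all 3 that were tested (Dcx, Dlx1 and Cd24) had an unadjusted P under 0.05. The paper lists these 3 among its genes of lowest P for the same rats, so they are not an independent observation. Endothelial markers were higher in 5 of 6 (281 to 320 CPM against 245 to 284) and striatal projection neuron markers lower in 9 of 10 (2900 to 5691 CPM against 3210 to 5662). The part of these in the Sox6 difference was not tested.

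For the other tested precursor genes the groups overlapped. Cspg4, the NG2 proteoglycan of precursor cells, was counted at 247, 206, 245, 276 and 267 in EtOH rats and at 185, 198, 236, 278 and 219 in water rats. These ranges overlap, and the log2 fold change was 0.15 (SE 0.11, exact P = 0.262). Bcas1, a marker of newly formed and myelinating oligodendrocytes, had the lowest fold change of the class, at 885, 1241, 660, 892 and 1366 in EtOH rats and 1191, 1141, 909, 877 and 974 in water rats. Its log2 fold change was -0.01 (SE 0.16, exact P = 0.849). Nkx2-2 and Enpp6, a transcription factor and a phosphodiesterase of cells entering differentiation, were counted at 6.56 to 20 and at 3.91 to 22.1 over the 10 rats and were too low to be tested.

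The lineage-wide factors lay close together in the 2 groups. Sox10, the SOX factor kept from precursor to mature cell, was counted at 222, 293, 209, 243 and 247 in EtOH rats and at 251, 275, 254, 198 and 268 in water rats, a log2 fold change of -0.04 (SE 0.11, exact P = 0.730). Olig2, a basic helix-loop-helix factor needed to form the lineage, was counted at 133, 225, 183, 165 and 215 in EtOH rats and at 154, 187, 172, 165 and 151 in water rats, a log2 fold change of 0.16 (SE 0.13, exact P = 0.421). The EtOH rats spread to both sides of the water rats for Olig2, with a coefficient of variation of 20.4% against 8.83%.

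Mature genes differed far more between rats of a group than between the groups. Mbp, myelin basic protein, which compacts the membrane layers, was counted at 14109, 20143, 10092, 14721 and 21701 in EtOH rats and at 19767, 19085, 15077, 14769 and 18204 in water rats. The highest and the lowest of the 10 rats were both EtOH rats, and the log2 fold change was -0.11 (SE 0.16, exact P = 0.571). Mog, an immunoglobulin-like protein of the outer myelin surface, was counted at 443, 573, 334, 431 and 613 in EtOH rats and at 563, 439, 427, 365 and 477 in water rats, a log2 fold change of 0.08 (SE 0.15, exact P = 0.802). Aspa, the enzyme that cleaves N-acetylaspartate, had the highest log2 fold change of the class, 0.34 (SE 0.18, exact P = 0.0873). It was counted at 109, 114, 90.4, 86.2 and 90.8 in EtOH rats and at 80.8, 57.5, 68.6, 59.1 and 115 in water rats, where rat 5 lay above all EtOH rats. Gjb1, the gap junction protein connexin 32, had the lowest, -0.26 (SE 0.18, exact P = 0.167), with 40.3, 70.0, 37.2, 52.3 and 47.6 in EtOH rats and 74.3, 58.6, 56.2, 48.6 and 59.9 in water rats. For the 24 mature genes tested the median log2 fold change was -0.0037, with 11 higher and 13 lower.

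**Figure D1:**
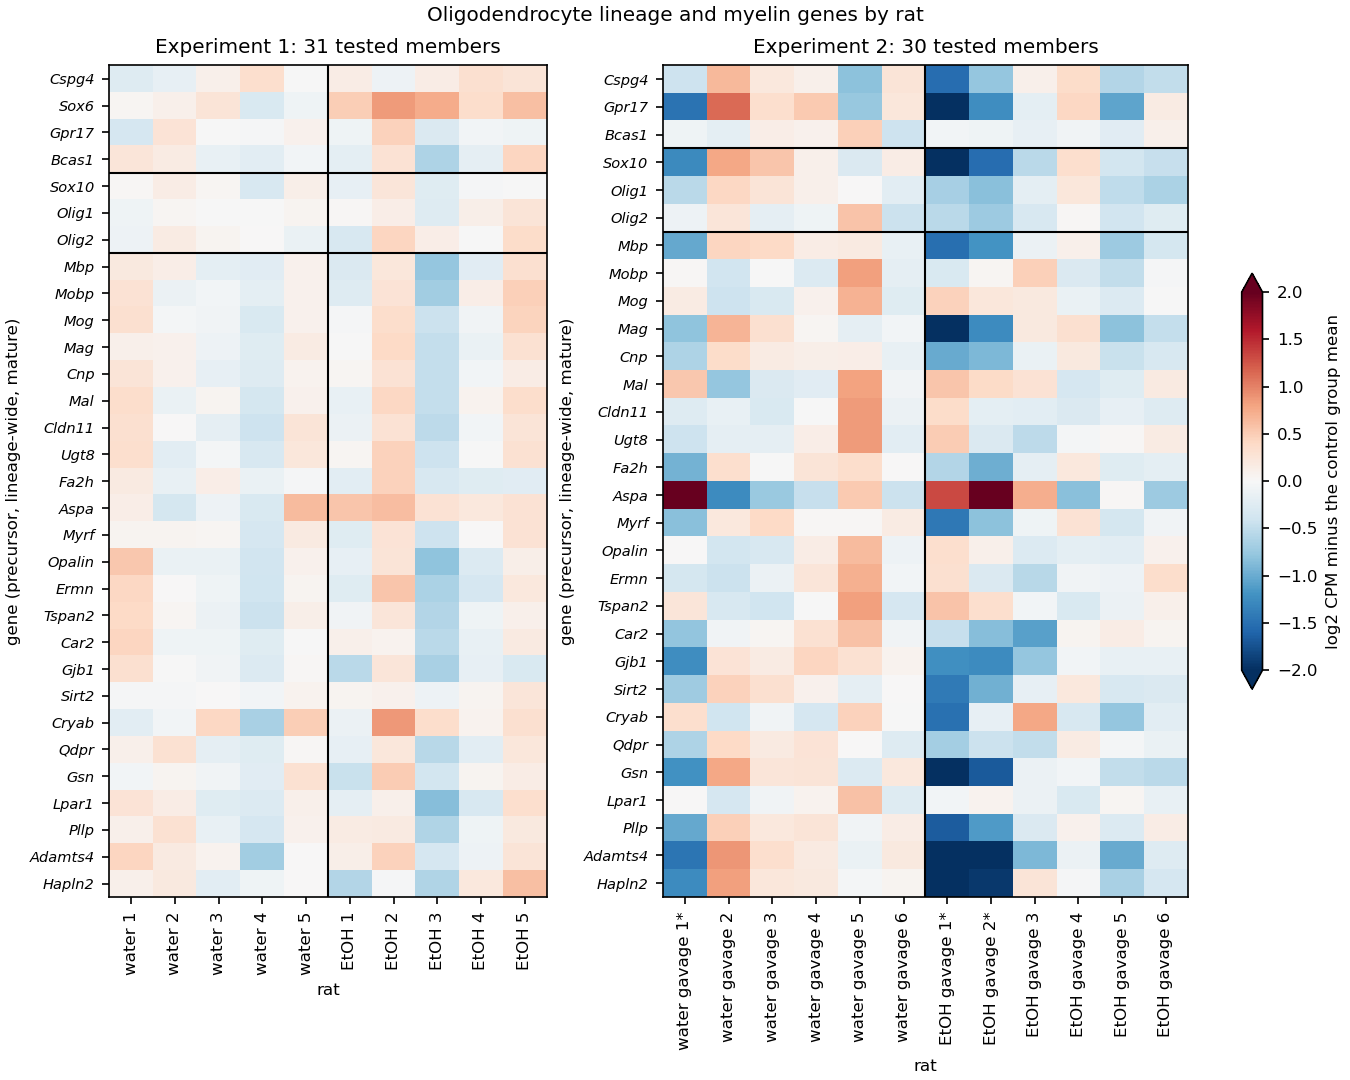
Level of each tested member (rows; black lines separate precursor, lineage-wide and mature genes) in each rat (columns; a black line separates control from EtOH rats), as log2 CPM minus the mean of the control group of that experiment; colours end at -2 and 2. Asterisks mark the 3 libraries of experiment 2 with the largest share of reads outside genes. In experiment 1 most mature genes of a rat share 1 colour, as in EtOH rat 3 (with Aspa and Cryab apart), and in experiment 2 the 3 marked libraries are low for many members and high for Aspa.

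In experiment 1 the mature genes varied together from rat to rat. After the group means were subtracted, the median Pearson's r of log2 CPM over the 276 pairs of mature genes was 0.775, and 80.4% of the pairs lay above 0.5. Over all pairs of tested genes the median was -0.00087 and 9.83% lay above 0.5. These are descriptions over 10 rats, and genes of 1 library share its depth and composition. Of the 30 other tested members, 23 had an r above 0.5 with Mbp, including 20 of the 23 other mature genes. Bcas1 had the highest r with Mbp, 0.985, followed by Lpar1, a lysophosphatidic acid receptor, and Mag, the myelin-associated glycoprotein of the innermost myelin layer (0.957). Cspg4 was the only member with a negative r, -0.40, and Sox6 stood at 0.12. Among the 6 pairs of precursor genes the median r was -0.033. The within-group SD of log2 CPM had a median of 0.308 over mature genes and 0.162 over all tested genes, and 23 of 24 mature genes exceeded the latter.

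A score for each rat, the mean z-score of log2 CPM over the tested members of a class, was computed within the experiment. The mature score of the EtOH rats was -0.33, 1.10, -1.54, -0.20 and 0.84, and that of the water rats 0.75, 0.066, -0.19, -0.97 and 0.47. The EtOH rats thus held the highest and the lowest score of the experiment (mean -0.026 ± 1.05 in EtOH rats and 0.026 ± 0.665 in water rats, SD, n = 5 each). The precursor score was 0.0010, 0.89, -0.40, 0.15 and 0.72 in EtOH rats and -0.71, 0.014, -0.11, -0.26 and -0.29 in water rats. EtOH rats 2 and 5 were high and EtOH rat 3 low in both scores, while water rat 1 was high in the mature and lowest in the precursor score. After subtracting group means, Pearson's r of the 2 scores was 0.62 over 10 rats. It was 0.098 without the 2 rats farthest out in the mature score. The precursor score also includes Bcas1, which varied with Mbp (r = 0.985). Within the scored genes a lower score cannot be split into fewer oligodendrocytes and less RNA per cell, which bulk tissue does not tell apart. Whether the mean sits low or high also rested on single rats. Without EtOH rat 3 only 4 of the 31 members were lower in the EtOH group (median log2 fold change 0.11), and without EtOH rat 2 it was 24 (median -0.079).

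**Figure D2:**
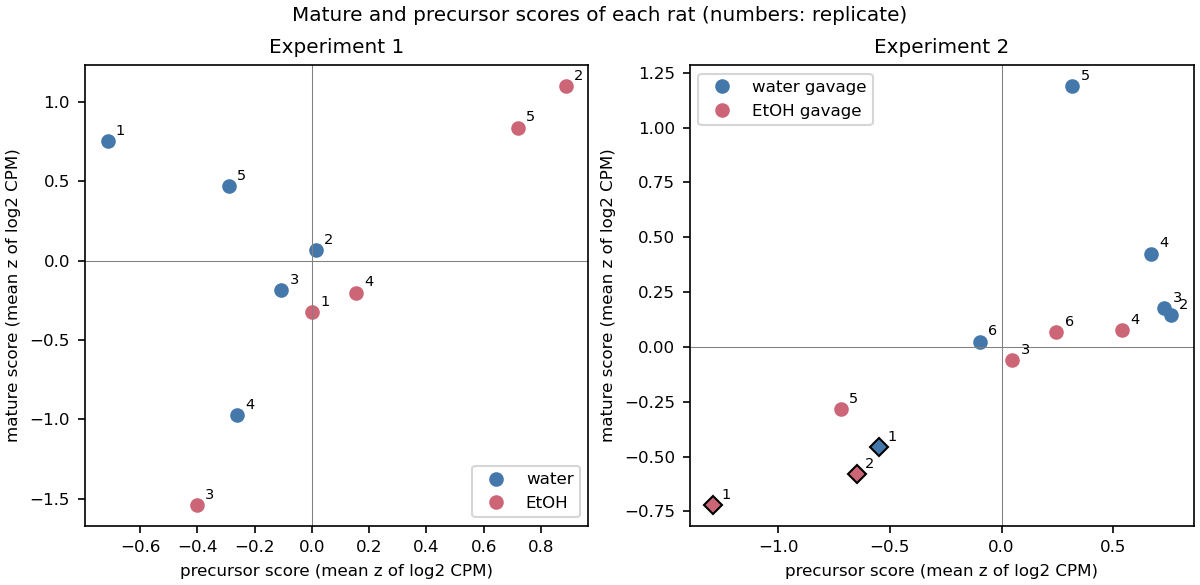
Mature score (vertical) against precursor score (horizontal) of each rat, both as mean z-scores of log2 CPM within the experiment; numbers are replicates and black-edged diamonds are the 3 libraries of experiment 2 that stood apart. In experiment 1 EtOH rats 2 and 5 lie at the upper right and EtOH rat 3 at the lower left; in experiment 2 the diamonds lie at the lower left, from both groups.

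In experiment 2 most members were lower after EtOH gavage, and none was set apart from the spread between rats. Of the 30 members tested, 26 (86.7%) were lower in the EtOH gavage group, against 49.9% of the 8655 tested genes, and the median log2 fold change was -0.38 against 0.00088 over all genes. All 3 tested precursor genes and all 3 lineage factors were lower, with medians of -0.47 and -0.46, as were 20 of the 24 mature genes (median -0.34). No gene had an FDR under 0.05 by edgeR (0% of 8655, lowest FDR 0.675), and an unadjusted P under 0.05 was reached by 61 higher (0.705%) and 54 lower genes (0.624%). Adamts4 was the only member among them. DESeq2 gave 0 genes at an FDR under 0.05 and 315 of 14110 at an unadjusted P under 0.05. No member had groups without overlap, which 1 gene in 8655 had (0.0116%). Sox6, Nkx2-2, Enpp6, Nkx6-2 and Gal3st1 were below the filter. The members covary and are not independent, so the number that were lower carries no test. Of the markers of other cell types, microglial genes were lower in 6 of 7 tested (summed level 151 to 351 CPM in EtOH gavage and 181 to 433 CPM in water gavage, no marker at 0 throughout) and endothelial genes in 6 of 6 (171 to 258 and 191 to 333 CPM). Striatal projection neuron genes were lower in 6 of 10 (median log2 fold change -0.27, 4705 to 6650 and 4833 to 8867 CPM) and astrocyte genes in 4 of 8 (median -0.035). Neuroblast genes were higher in 3 of 3 (median 0.36, 207 to 382 and 168 to 308 CPM). Cortical neuron genes were lower in 2 of 4 (median -0.015). Their summed level varied widely between rats, at 2.47 to 428 CPM in EtOH gavage and 2.86 to 535 CPM in water gavage. Reads outside genes made up 49.8 to 58% in EtOH gavage and 46.1 to 54.5% in water gavage rats. The part of these in the lower member counts was not tested.

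Adamts4, a secreted metalloprotease made by mature oligodendrocytes in the brain, had the lowest fold change of all members. It was counted at 11, 27.3, 80.2, 141, 74.2 and 124 in EtOH gavage rats 1 to 6 and at 52.6, 289, 198, 173, 136 and 174 in water gavage rats 1 to 6. Except for water gavage rat 1, which belongs to the 3 libraries set apart, all but 1 EtOH value lay below all water values. Setting that rat aside was chosen after the values were seen, and the share of all genes like this was not computed. The means were 76.4 ± 51.4 and 171 ± 77.4 (SD, n = 6 each), a log2 fold change of -1.16 (SE 0.52, edgeR FDR = 0.675). The exact P was 0.0628, where the smallest that 6 rats against 6 allow is 0.00216. The unadjusted P of edgeR, 0.0431, stayed under 0.05 when water gavage rat 1 (0.0174), EtOH gavage rat 4 (0.0209) or EtOH gavage rat 6 (0.0317) was left out and exceeded it without any of the other 9 rats, with a highest value of 0.102 without water gavage rat 2. In experiment 1 its counts were 86.0 to 152 in EtOH and 66.9 to 147 in water rats.

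Among precursor genes Gpr17, a receptor of cells committed to differentiation, had the lowest fold change. It was counted at 16.5, 30.9, 67.6, 105, 36.2 and 85.4 in EtOH gavage rats and at 26.3, 180, 103, 113, 44.4 and 91.8 in water gavage rats, a log2 fold change of -0.71 (SE 0.49, exact P = 0.238). The 3 lowest values are those of the 3 libraries set apart. Cspg4 was counted at 70.4 to 286 (median 148) in EtOH gavage and at 122 to 356 (median 249) in water gavage rats, a log2 fold change of -0.47 (SE 0.33, exact P = 0.203). Bcas1, with 1148 to 1424 (median 1248) and 1013 to 1871 (median 1353), had the least negative value of the class, -0.14 (SE 0.14, exact P = 0.582). Sox6, below the filter here, was counted at 27.5 to 84.3 in EtOH gavage and 49.6 to 79.0 in water gavage rats.

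Among the lineage factors Sox10 was counted at 27.5, 72.5, 150, 279, 168 and 155 in EtOH gavage rats and at 87.1, 386, 332, 234, 175 and 241 in water gavage rats. The 3 libraries set apart were again lowest, and the log2 fold change was -0.77 (SE 0.46, exact P = 0.128). Olig2 was counted at 94.6, 85.5, 118, 150, 111 and 121 in EtOH gavage and at 134, 180, 135, 138, 216 and 108 in water gavage rats, a log2 fold change of -0.42 (SE 0.20, exact P = 0.0649). Olig1, its close relative, gave -0.46 (SE 0.22, exact P = 0.0714), and is named after its value was seen.

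Among mature genes Mbp was counted at 8461, 10810, 23419, 27660, 15259 and 19540 in EtOH gavage rats and at 12330, 35455, 34874, 28249, 28509 and 22919 in water gavage rats. The groups overlap, and the log2 fold change was -0.63 (SE 0.30, exact P = 0.0931). Mog, in contrast, was counted at 1577, 1396, 1389, 1114, 999 and 1186 in EtOH gavage and at 1342, 938, 1025, 1299, 1948 and 1032 in water gavage rats, a log2 fold change of 0.01 (SE 0.18, exact P = 0.712). Aspa had the highest log2 fold change, 0.29 (SE 0.67, exact P = 0.519), with 980, 1996, 687, 233, 418 and 244 in EtOH gavage and 2099, 178, 254, 299, 584 and 307 in water gavage rats, so its 3 highest values are those of the 3 libraries. Nkx6-2, a homeodomain factor of mature oligodendrocytes below the filter, was counted at 0, 0, 0.966, 3.28, 0 and 0 in EtOH gavage rats and at 0, 19.96, 11.2, 3.64, 5.29 and 10.2 in water gavage rats. Apart from water gavage rat 1, each water gavage rat lay above every EtOH gavage rat, at the closest by 4 reads against 3 in raw counts. Setting that rat aside was chosen after the values were seen, and the share of all genes divided in this way was not computed. In experiment 1 the same gene stood at 22.2 to 39.0 in EtOH and 18.4 to 57.5 in water rats.

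**Figure D3:**
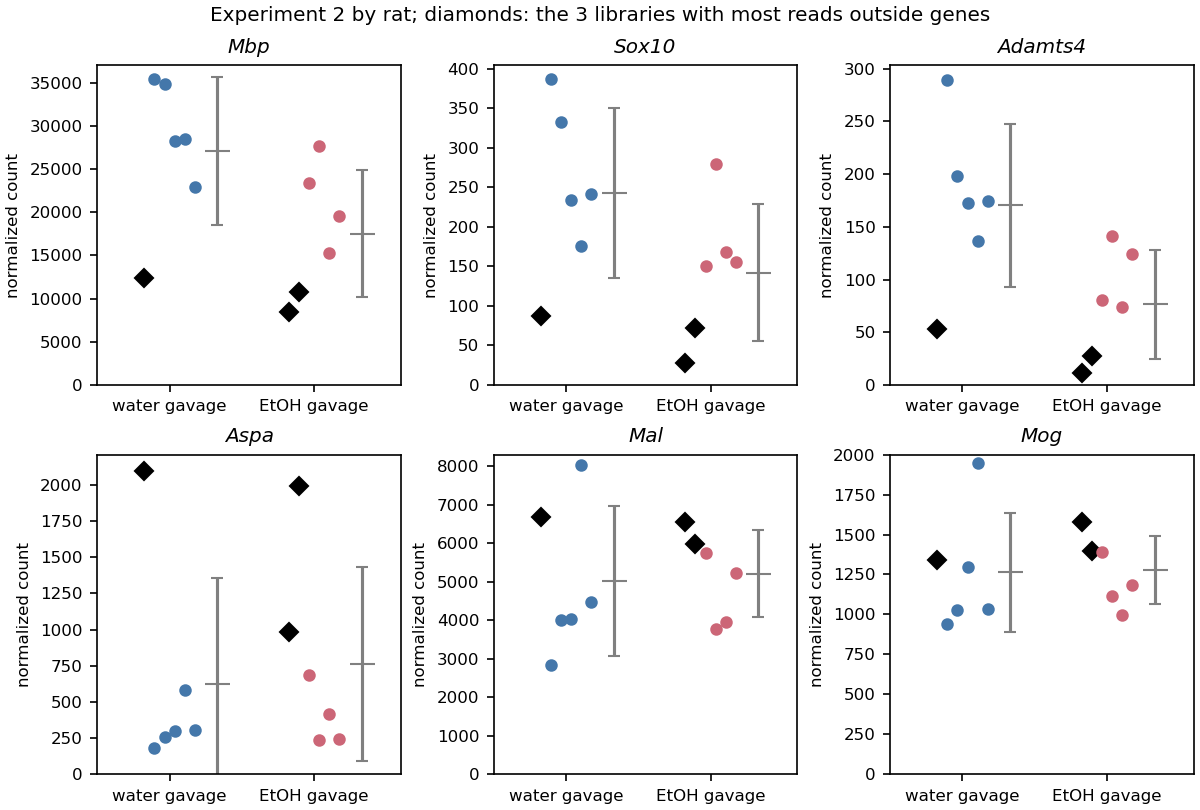
Normalized counts of 6 members in each rat of experiment 2 (circles; black diamonds are the 3 libraries with the largest share of reads outside genes), with the mean and SD of each group of 6 in grey (bars end at 0). The diamonds are lowest for Mbp, Sox10 and Adamts4 and highest for Aspa, while for Mal and Mog they lie in the upper range.

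The 3 libraries divided the members in 2 directions, and the share of all genes divided in this way was not computed. These libraries also lay at 1 end of the first component of genes that are no members. The counts of members below are therefore not shown to be particular to the members. In all 3 of them 13 of the 35 members lay below each of the other 9 libraries. These were Gpr17, Sox10, Mbp, Mag, Cnp (the myelin phosphodiesterase), Fa2h (which hydroxylates myelin lipids), Myrf, Gjb1, Sirt2 (a deacetylase), Gsn (the actin-severing gelsolin), Pllp (the membrane protein plasmolipin), Adamts4 and Hapln2 (a link protein of the node of Ranvier). Mag, for example, was counted at 235 to 596 in the 3 and at 597 to 1757 in the other 9, and Sirt2 at 418 to 710 and 937 to 1692. Aspa alone lay above all others, at 980 to 2099 against 178 to 687. Mal, a raft protein of myelin, was counted at 5988 to 6683 against a median of 4030, and Tspan2, a tetraspanin of myelin, at 3912 to 4743 against a median of 3090, both within the range of the other 9. The members took 0.515, 0.57 and 0.619% of assigned reads in the 3 libraries and 0.636 to 1.08% in the other 9. Scores of microglial, cortical neuron, endothelial and fibroblast and mural cell markers were also below 0 in all 3. Each of these scores was below 0 in some of the other 9 libraries too. EtOH gavage rat 3, for example, had -0.32 for microglial, -0.21 for endothelial and -0.36 for fibroblast and mural cell markers. The lowest cortical neuron score of experiment 2, -1.69, was that of water gavage rat 5, outside the 3. Since the 3 libraries were picked by their reads outside genes and include rats of both groups, no contrast of treatments is drawn from them.

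Without the 3 libraries, 5 water gavage rats were compared with 4 EtOH gavage rats, an alternative chosen after the data were seen. Of the 30 members, 27 were then lower (90%), against 54.3% of all tested genes, and the median log2 fold change was -0.30 (all genes -0.017). The 4 members with an unadjusted P under 0.05 were Adamts4 (-0.88, SE 0.26), Gsn (-0.59, SE 0.20), Gjb1 (-0.54, SE 0.20) and Mbp (-0.48, SE 0.18), of which Gsn and Gjb1 are named after their values were seen. None had an FDR under 0.05 by edgeR (lowest FDR 0.999), and 109 of all 8655 genes had an unadjusted P under 0.05. Microglial markers were lower in 7 of 7 tested genes, endothelial in 6 of 6, striatal projection neuron in 9 of 10 (median -0.34) and astrocyte in 7 of 8 (median -0.038). Cortical neuron markers were lower in 1 of 4 (median 0.25). With the share of reads outside genes as a covariate over all 12 rats, 29 of 30 members were lower (median -0.19, all genes -0.011). No member had an unadjusted P under 0.05 in this fit. Of all tested genes, 53.9% were lower in it and 162 (1.87%) had an unadjusted P under 0.05. Cortical neuron markers were higher in it in 4 of 4 tested (median 1.92), 3 of them with an unadjusted P under 0.05. Gpr17 then stood at 0.11 and Aspa at -0.49. The count of members with an unadjusted P under 0.05 also moved with single rats, to 12 (11 lower and Aspa higher) without water gavage rat 1 and to 10 without EtOH gavage rat 4. The share of all 8655 genes moved as well, from 1.33% with all rats to 8.97% and 8.87%.

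**Figure D4:**
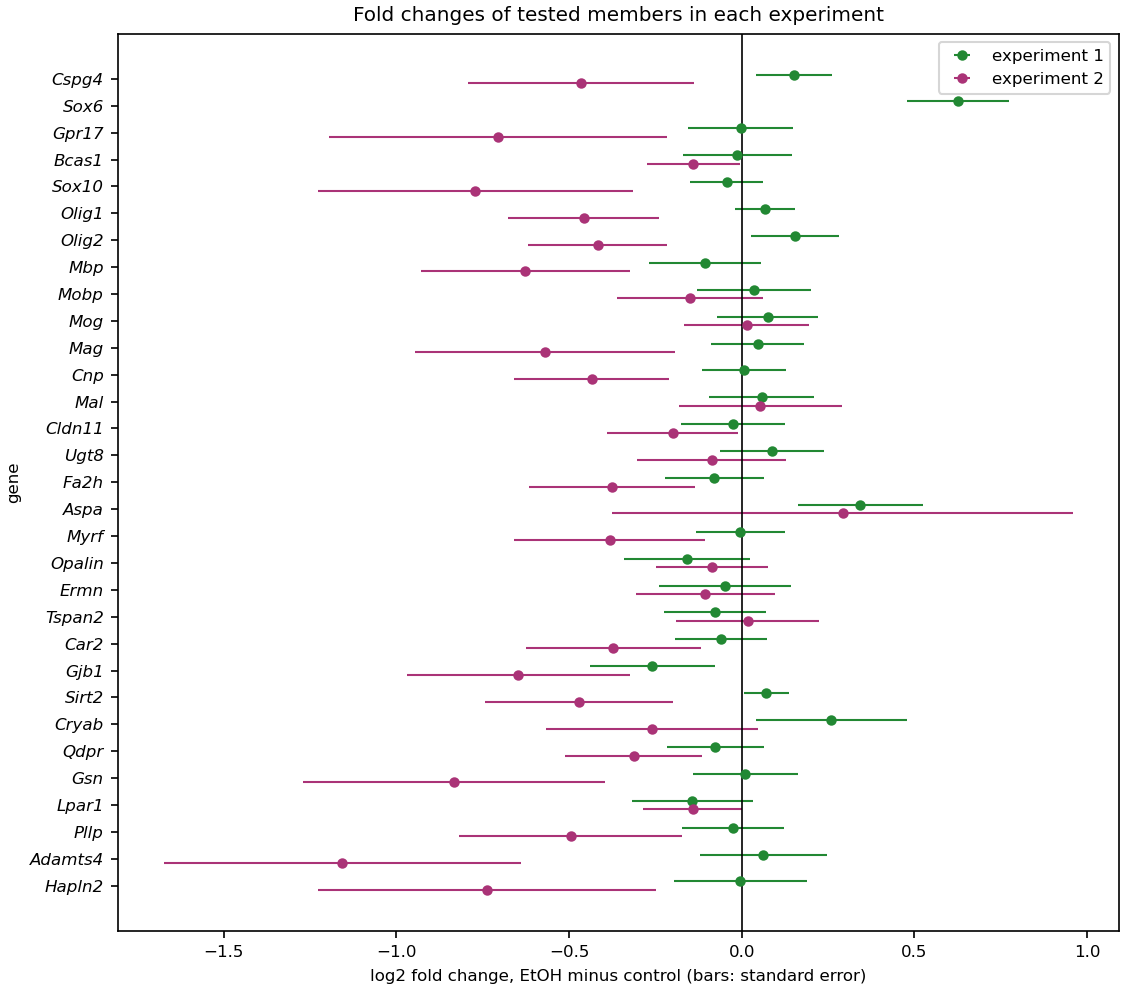
Log2 fold change of each tested member (EtOH minus control) with its standard error, in experiment 1 (green) and experiment 2 (purple). Values of experiment 1 lie around 0 apart from Sox6 at 0.63, and those of experiment 2 run from -1.16 for Adamts4 to 0.29 for Aspa.

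Co-variation among the members had a lower median in experiment 2 and ran in 2 directions, as it did over all tested genes. For the 276 pairs of mature genes the median r was 0.215, with 38.4% above 0.5 and 16.7% below -0.5. Over all pairs of tested genes the median was 0.010, with 28.9% above 0.5 and 28.4% below -0.5. Of the 29 other tested members, 16 had an r above 0.5 with Mbp and 3 an r below -0.5 (Tspan2, Mal and Aspa). Without the 3 libraries the median over mature pairs was 0.123, with 32.6% above 0.5 and 18.1% below -0.5, where 21% of all gene pairs lay on either side. With Mbp, 13 of 29 members then had an r above 0.5 and none an r below -0.5. Cnp had the highest r with Mbp with and without them (0.983 and 0.949). Mog, with an r of 0.944 in experiment 1, had -0.40 over 12 rats and 0.030 over 9. These too are descriptions, over rats whose libraries differ in the share of reads outside genes. Between the experiments the libraries differed in strand protocol and depth, so the difference in r cannot be told apart from that of the protocols.

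**Figure D5:**
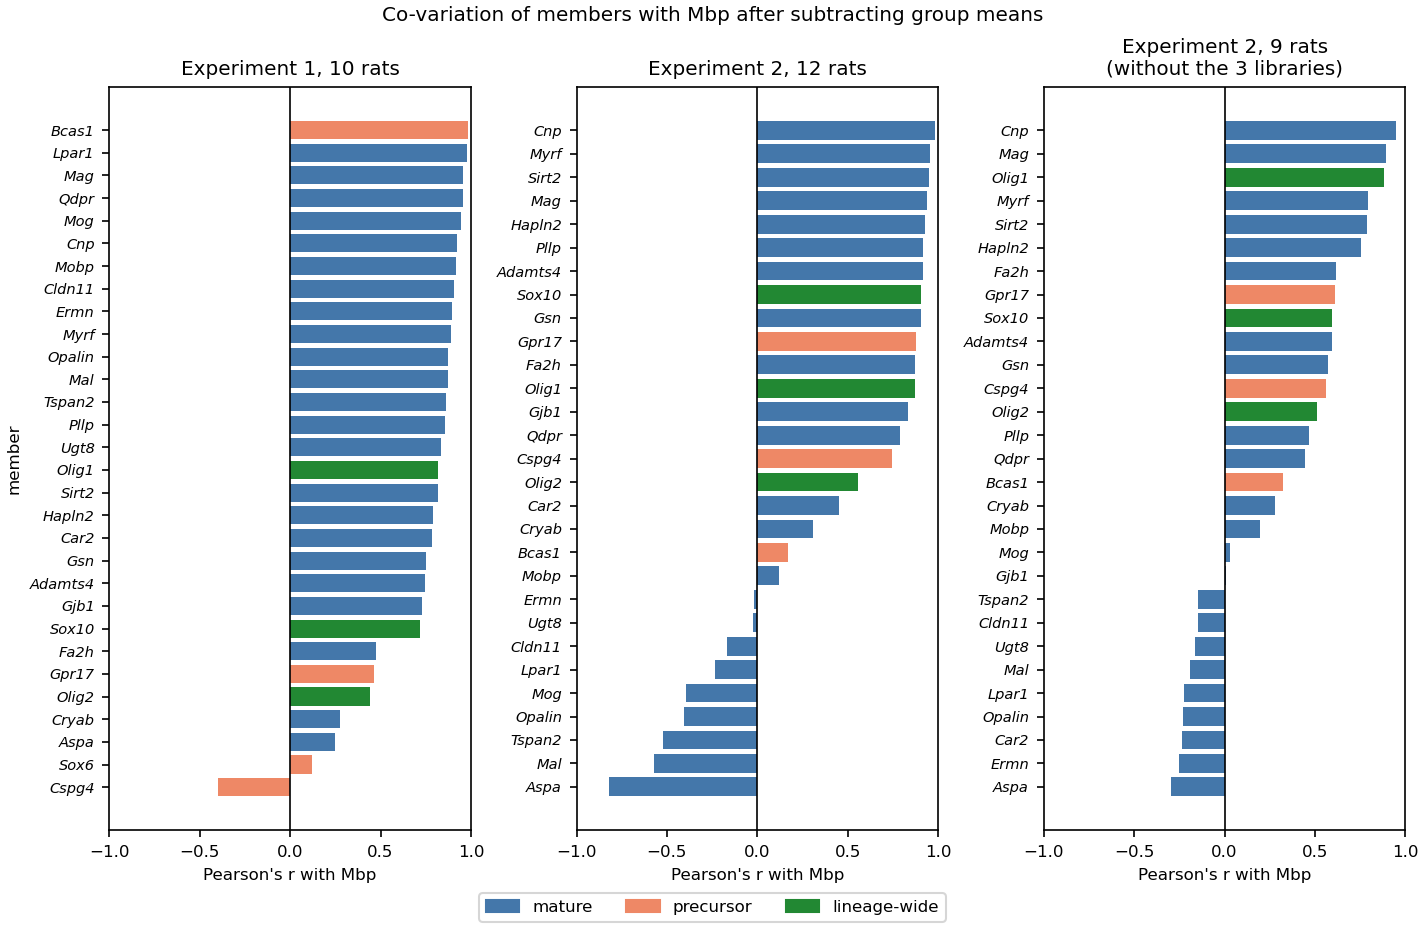
Pearson's r of each other tested member with Mbp across rats, from log2 CPM after subtracting the group mean, sorted within each panel (experiment 1, experiment 2, and experiment 2 without the 3 libraries). In experiment 1 only Cspg4 lies below 0, while in experiment 2 9 members do, among them Mog, Mal and Aspa.

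The mature score was 0.14, 0.18, 0.43, 1.19 and 0.024 in water gavage rats 2 to 6 and -0.061, 0.078, -0.29 and 0.068 in EtOH gavage rats 3 to 6. In the 3 libraries it was -0.46 (water gavage), -0.72 and -0.58 (EtOH gavage). Group means were 0.25 ± 0.544 and -0.25 ± 0.339 (SD, n = 6 each). The precursor score was 0.76, 0.73, 0.67, 0.32 and -0.098 in water gavage rats 2 to 6 and 0.049, 0.54, -0.72 and 0.24 in EtOH gavage rats 3 to 6, and lay between -1.29 and -0.55 in the 3 libraries. The groups overlap in both scores. Water gavage rat 5 stood highest in the mature score, with its Mal, Mobp and Tspan2 the highest of the 12 rats.

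The EtOH effect on members was then compared between the experiments by the interaction of treatment and experiment in edgeR. The 2 contrasts are unlike, EtOH drinking against water only and EtOH gavage against water gavage among drinkers. The paper calls a direct comparison between its experiments not possible. The fit used 1 shared spread per gene, while the common biological coefficient of variation was 11.1% in experiment 1 and 31.3% in experiment 2. Its SE and P thus describe the spread of neither experiment. Of 8176 genes tested in both, 0 had an FDR under 0.05 (lowest 0.813) and 154 (1.88%) an unadjusted P under 0.05, among them 1 of the 30 members. For Olig2 the log2 fold change was 0.16 in experiment 1 and -0.42 in experiment 2, a difference of -0.56 (SE 0.25, edgeR FDR = 0.813). Of the 30 members 18 (60%) had the same sign in both experiments, 15 lower and 3 higher, where 53% of all genes did. The 3 higher in both were Mog, Mal and Aspa.

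Other genes of the oligodendrocyte lineage, a list of 53 of which 46 were counted, followed the members in part. In experiment 1, 37 were tested and 22 lower (median log2 fold change -0.023). Pdgfra, the growth factor receptor of precursor cells, was the only one with an unadjusted P under 0.05, as higher by 0.30 (SE 0.064, edgeR FDR = 0.536) with groups that did not overlap. The paper, which used DESeq2 on the same rats, lists Pdgfra among its genes of lowest P, at a lower FDR than this. In experiment 2, 39 were tested and 24 lower (61.5%, median -0.17), and 3 had an unadjusted P under 0.05, all lower. Among them were Gpr37, a receptor of differentiating cells (-0.37, SE 0.16), and Tf, transferrin (-0.44, SE 0.18), each with an FDR of 0.675. Without the 3 libraries 31 of the 39 were lower (median -0.16).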

How the data were processed

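RNA was sequenced from the NAc of 22 rats in 4 groups taken from the sample labels. Per the paper's methods and the submitters' processing notes, the authors aligned paired reads to the rat genome (Rnor_6.0) with TopHat2 2.0.13 and deposited raw read counts per gene from HTSeq, without normalization. Reads aligned to several places are not counted, which lowers the counts of genes with near-identical copies. Only experiment 2 used strand-specific libraries, so the experiments were fitted separately. From the counts, genes with a mean above the median of all 17310 listed were fitted (8655 per experiment) by the quasi-likelihood test of edgeR 4.0.16 under R 4.3.3 after TMM normalization, adjusted by the Benjamini-Hochberg method over all tested genes. Normalized counts are scaled to the mean effective library size, and log2 CPM used a prior count of 2. Assigned depth ranged from 2962291 to 8765472 reads, which limits the precision of the lowest members. The fits were tested on simulated counts. Alternatives were DESeq2 1.42.0, other normalizations and filters, a joint fit, a replicate block and each rat left out. Members, lists and tests were chosen with earlier results of these data known. Per-rat values are given for members with an unadjusted P under 0.05 in either experiment, for the highest and lowest fold change of each class, and for Mbp, Mog, Sox10, Olig2 and Cspg4, other members named were chosen after their values were seen. Promoters are named by GRCr8 and no coordinates were moved between builds. Levels were not compared between genes, since no transcript lengths were used here. The drinking data were not analysed here. A gene of the wider lineage list is not reported here.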

Additional observations from a re-analysis of the deposited data

Results flagged for a closer look

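Among 138 sets of 5 or 6 rats checked for 1 value standing away from the others, 10 had such a value, and chance alone gives about 1 in 20, or 6.9. Each value below is a normalized count. In experiment 1, EtOH rat 2 had Gpr17 at 128 (other EtOH rats 75.3 to 89.3) and Fa2h at 222 (129 to 139), and water rat 4 had Myrf at 427 (other water rats 555 to 608). In experiment 2, water gavage rat 5 had Mobp, a protein of compact myelin, at 8141 (other water gavage rats 3725 to 4838), Cldn11, the tight junction protein of myelin, at 3157 (1457 to 1764), Ugt8, which makes galactosylceramide, at 3323 (1373 to 2056), and Lpar1 at 1502 (824 to 1070). Water gavage rat 1, which belongs to the 3 libraries with the most reads outside genes, had Aspa at 2099 (178 to 584) and Gjb1 at 31.4 (82.4 to 106). EtOH gavage rat 1, which belongs to them as well, had Cldn11 at 2157 (other EtOH gavage rats 1449 to 1579).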

How the results depend on the processing

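No alternative gave a gene at an FDR under 0.05 in either experiment or in the difference between them. The count of members with an unadjusted P under 0.05, 1 in experiment 1, was 0 in the joint fit of 4 groups (where Sox6 was not tested), 2 with the replicate block and 1 to 3 without single rats. The share over all tested genes, 5.58%, was 0.978% in the joint fit, 5.5% with the replicate block and 4.37 to 8.54% without single rats. In experiment 2 the count of members, 1 in the edgeR fit above, was 0 with library totals only, 3 with DESeq2 and 2 with no filter (Adamts4 and Nkx6-2). It was 9 in the joint fit, 12 with the replicate block, 0 with the share of reads outside genes as a covariate and 4 without the 3 libraries. Without single rats it ran from 0 to 12. The share over all tested genes, 1.33%, was 1.18% with library totals only, 2.23% with DESeq2 and 2.03% with no filter. It was 7.18% in the joint fit, 4.78% with the replicate block, 1.87% with the covariate and 1.26% without the 3 libraries. Without single rats that share ran from 0.347 to 8.97%. The cause of these shifts was not tested. Replicate numbers were not shown to pair the rats. Same-numbered rats correlated at -0.13 to 0.14 in experiment 1 and -0.76 to 0.84 in experiment 2 (mean 0.15, 4 of 6 pairs over 0.1). Of the rats, 2 of 10 and 1 of 12 correlated best with their own number. In experiment 2 the first component held 73.6% of the variance, so this check cannot decide whether its rats were paired. The direction of Mog in experiment 2 (0.01) turned to -0.0037 with library totals, -0.086 without the 3 libraries and -0.18 with the covariate, and ran from -0.059 to 0.18 without single rats. The covariate also turned Gpr17 to 0.11 and Aspa to -0.49, and Aspa ran from -0.27 to 1.23 without single rats. In experiment 1, leaving out single rats moved Bcas1 from -0.15 to 0.11, Sox10 from -0.12 to 0.0089, Mbp from -0.24 to 0.024 and Mog from -0.029 to 0.18. The median log2 fold change of mature members stayed between -0.082 and 0.098 in experiment 1 and between -0.46 and -0.22 in experiment 2.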
